A study of Mus musculus with 3 samples.

Results

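The 10 genes described here, Clec4f, Vsig4, Timd4, Cd5l, Marco, Cd163, Cd209f, Cd209g, Adgre1 and Spic, are used to recognise Kupffer cells, the resident macrophages of the liver, and were taken by symbol from the 19059 genes counted in each library. They were measured by probe capture in single, fixed CD45+ cells sorted from the livers of mice at postnatal day 0. The KO library came from Pex2-/- mice, the Het library from mice with 1 mutant Pex2 allele and the WT library from Pex2+/+ mice; all 3 libraries shared the tissue, the age, the sort and the removal of hepatocytes and red cells. Pex2 encodes part of the membrane complex through which enzymes enter peroxisomes, and mice without it model severe Zellweger disease. With 1 library per genotype, and the number of animals behind each not given in the sources used here, no difference between genotypes could be tested, and each such difference is given with an interval that covers counting error only. Macrophages were gated, without reference to any of the 10 genes, as cells in which at least 2 of the complement genes C1qa, C1qb and C1qc had 2 or more UMIs (unique molecular identifiers, the counted molecules). The gate held 200 of 7947 KO cells, 118 of 7814 cells labelled Het and 99 of 9327 cells labelled WT.

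Kupffer cells descend mainly from yolk sac and fetal liver precursors that settle in the liver before birth and line its sinusoids, where they clear bacteria, ageing red cells and dying cells from the portal blood. Their identity is set by signals from sinusoidal endothelium, stellate cells and hepatocytes, among them Notch ligands, TGF-beta family proteins and ligands of the sterol sensor LXR-alpha. Monocyte-derived cells that enter an emptied niche acquire much of the same program, with Timd4 known as a late gene in that process.

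The pair of C-type lectin genes Cd209f and Cd209g differed most between the libraries among the 10 members, and their sequences are shown because they share long identical stretches. Cd209f lies on the minus strand at chr8:4102787-4105835 and Cd209g on the plus strand at chr8:4134098-4137707 (GRCm38, GENCODE M21), with 28.262 kb between them. The promoter windows (RefSeq, GRCm38.p6, 250 bases before to 50 after the start) span chr8:4105715-4106014 on the minus strand and chr8:4134486-4134785 on the plus strand. Capitals mark the longest run that is identical in both, 180 bases. The Cd209g window lies within the gene span given above for Cd209g.
Cd209f: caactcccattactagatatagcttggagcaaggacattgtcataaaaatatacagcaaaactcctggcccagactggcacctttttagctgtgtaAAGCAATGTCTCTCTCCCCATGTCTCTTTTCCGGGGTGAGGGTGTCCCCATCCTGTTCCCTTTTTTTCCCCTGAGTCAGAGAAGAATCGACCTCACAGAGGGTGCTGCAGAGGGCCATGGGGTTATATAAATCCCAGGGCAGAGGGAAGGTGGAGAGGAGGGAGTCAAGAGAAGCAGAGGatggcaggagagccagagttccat
Cd209g: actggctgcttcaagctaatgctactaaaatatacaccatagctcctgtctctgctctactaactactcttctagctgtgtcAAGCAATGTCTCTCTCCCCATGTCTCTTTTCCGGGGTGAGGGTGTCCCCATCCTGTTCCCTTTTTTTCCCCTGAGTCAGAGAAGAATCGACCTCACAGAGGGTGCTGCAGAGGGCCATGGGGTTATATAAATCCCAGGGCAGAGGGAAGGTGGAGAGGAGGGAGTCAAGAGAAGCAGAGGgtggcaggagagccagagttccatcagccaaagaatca
The shared run holds 1 match to TGAGTCA, the letters bound by AP-1 and BACH factors, at base 168 of the Cd209f window and base 154 of the Cd209g window. Searched on both strands, that motif was in 5.20% of 32851 promoter windows and, among the 9 members with a window, in those of Cd209f and Cd209g. The core letters of PU.1 and SPI-C, GAGGAA, were in 3 of the 9 windows (Marco, Cd5l and Vsig4) and in 28.3% of all windows. A MAF half-site, TGCTGA, was in 5 of the 9 (Cd5l, Clec4f, Spic, Timd4 and Vsig4) and in 19.5% of all. The likeness continues in the transcripts, of which 41.5% of the 25-base words of Cd209f occur in Cd209g and the longest shared stretch is 416 bases, while neither shares a 25-base word with Cd209a, Cd209b, Cd209c, Cd209d or Cd209e. Probe sequences were not used here, so counts of Cd209f and Cd209g cannot be told apart with certainty and are best read as a pair.

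The libraries stood apart in several ways that touch every comparison below. They held 186295183 UMIs in the KO, 144589956 in the labelled Het and 96629431 in the labelled WT library, with medians of 19348, 15558.5 and 8218.5 UMIs per cell in that order. Pex2 had 2 UMIs in the KO library, against 53.3 CPM (UMIs of a gene scaled to a total of 1000000 UMIs) in the library labelled Het and 23.6 CPM in the library labelled WT, an order of the controls that goes against their labels. The Y-linked gene Ddx3y was at 0.0161 CPM in the KO and 0.0138 CPM in the labelled Het library, against 82.3 CPM in the library labelled WT, so sex and genotype cannot be told apart between KO and labelled WT. No full barcode was shared between libraries, and 961 to 1184 of the 16-base cell parts of the barcodes were shared by each pair.

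The gated share was 2.52% of KO cells (95% Clopper-Pearson interval 2.18 to 2.89%), 1.51% of cells labelled Het (1.25 to 1.81%) and 1.06% of cells labelled WT (0.863 to 1.29%). Just inside the gate, 51 KO, 21 labelled Het and 13 labelled WT cells had their second-highest C1q gene at 2 or 3 UMIs, and just outside it 65, 37 and 28 cells had it at 1. The gated cells also held RNA of another lineage, and whether this bears on the share was not tested. The 14 neutrophil-lineage markers, all detected, summed to 149758 CPM in KO gated macrophages, 115586 CPM in those labelled Het and 58182 CPM in those labelled WT, although the median gated cell had 0.614%, 0.942% and 0.899% of its UMIs in these markers in the same order. Clustering placed 48, 15 and 2 gated cells among neutrophil-lineage-like clusters and 130, 78 and 86 in macrophage-like clusters. The gated cells in macrophage-like clusters, with median C1q sums of 16354, 17209 and 14563 CPM, were 1.64%, 0.998% and 0.922% of all cells, and their neutrophil marker sums were 44452, 80719 and 53045 CPM. The gated cells outside those clusters had median C1q sums of 252, 689 and 3326 CPM. Levels are therefore given for the whole gate and again for the gated cells in macrophage-like clusters, here called clustered macrophages; as clusters were built from the most variable genes, with no member or gate gene held out, the second set is a description. In the clustered macrophages C1qb was at 5902 CPM in KO, 5971 CPM in labelled Het and 5855 CPM in labelled WT macrophages. C1qa was at 5430, 4791 and 4629 CPM in the same order, with KO over WT at 1.17 (1.13 to 1.22). C1qc was at 1786, 1967 and 2372 CPM, with KO over WT at 0.753 (0.711 to 0.797).

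All 10 genes marked the gated macrophages in this neonatal liver. Summed over each library, every member was higher in gated macrophages than in all other cells of the same library, in 3 of 3 libraries. In edgeR's quasi-likelihood test with the library as a block, all 10 were higher at an adjusted p (Benjamini-Hochberg) between 8.72e-08 (Timd4) and 7.38e-05 (Adgre1), beside 15.7% of the 12294 genes tested, while 13.8% were lower. The log2 difference was 11.40 ± 0.35 for Cd209g, 10.59 ± 0.55 for Clec4f, 10.12 ± 0.21 for Timd4 and 9.70 ± 0.24 for Spic (SE, 3 libraries), and the remaining members except Adgre1 lay between 10.20 and 11.25. Adgre1, which encodes the F4/80 antigen, an adhesion receptor used to stain mouse macrophages, differed least, by 4.66 ± 0.42. Without the library labelled Het the count of genes higher in macrophages was 1269 in place of 1933, and all 10 members stayed among them.

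Adgre1 was also present in other classes. Monocyte-like cells held it at 50.7 CPM in KO, 61.0 CPM in labelled Het and 45.6 CPM in labelled WT cells, and basophil and mast-like cells at 66.9, 59.9 and 33.8 CPM, values whose intervals overlap in all 3 libraries. Conventional dendritic-like cells followed at 13.6, 7.37 and 7.95 CPM, and neutrophil-lineage-like cells at 1.28, 4.79 and 3.40 CPM. For the remaining 9 members, the highest level in any other class was 9.88 CPM, that of Cd163 in KO conventional dendritic-like cells, from 8 UMIs. Within each library the level of those 9 genes was higher in gated macrophages than in each of the 9 other classes. For Cd209f and Cd209g in the KO library those classes gave no UMI of either gene. The intervals there overlapped except against neutrophil-lineage-like cells (upper limit 0.0317 CPM) and monocyte-like cells (0.111 CPM).

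**Figure D1:**
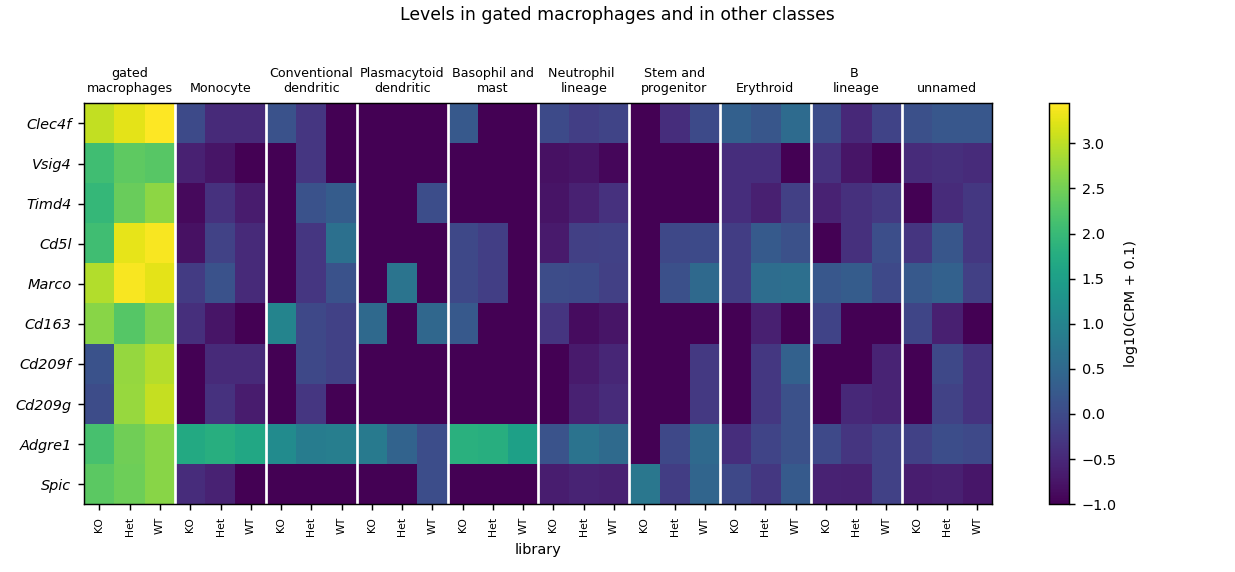
Level of each gene, as log10(CPM + 0.1), in gated macrophages and in 9 other classes of cells, with the KO, Het and WT libraries side by side in each. All genes are bright in macrophages except Cd209f and Cd209g in the KO library, and Adgre1 is also present in monocyte-like and basophil and mast-like cells.

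Of the 3 lectins, Cd209f and Cd209g were nearly missing from KO macrophages, while Clec4f was lower in KO by much less. Cd209f and Cd209g are C-type lectins related to the dendritic cell receptor DC-SIGN. Cd209f had 5 UMIs in all 200 KO gated macrophages together (1.20 CPM, exact Poisson interval 0.390 to 2.81), against 951 UMIs (549 CPM, 514 to 585) in the library labelled Het and 763 UMIs (881 CPM, 819 to 946) in the library labelled WT. Cd209g had 4 UMIs in KO (0.962 CPM, 0.262 to 2.46), 998 in labelled Het (576 CPM, 541 to 613) and 956 in labelled WT macrophages (1104 CPM, 1035 to 1176). KO stood far below both controls, whose own ratio, Het over WT, was 0.623 for Cd209f and 0.522 for Cd209g. In the clustered macrophages Cd209f was at 2.57 CPM in KO, 938 CPM in labelled Het and 970 CPM in labelled WT cells, so KO over WT was 0.00265 (exact conditional interval 0.000859 to 0.00622) and KO over Het 0.00274 (0.000888 to 0.00642). Cd209g was at 1.54, 984 and 1216 CPM in the same cells, with KO over WT at 0.00127 (0.000261 to 0.00372) and KO over Het at 0.00157 (0.000323 to 0.00460). Neutrophil-lineage-like cells gave no UMI of either gene in the KO library and 8 to 13 UMIs in each control.

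Clec4f, a galactose-binding lectin found in mice on Kupffer cells (minus strand, chr6:83644542-83656187), had the highest level of the 3 lectins in each library. Over the whole gate it was at 1101 CPM in KO, 1798 CPM in labelled Het and 2765 CPM in labelled WT macrophages. Timd4, Cd5l, Cd209f, Cd209g, Adgre1 and Spic had the same order, which is opposite to that of the neutrophil marker sums. Whether these orders are linked was not tested. Among clustered macrophages it was at 2308 CPM (2241 to 2377) in KO, 3137 CPM (3027 to 3251) in labelled Het and 3057 CPM (2935 to 3182) in labelled WT cells. KO was below both there, at 0.755 of labelled WT (0.718 to 0.794) and 0.736 of labelled Het (0.703 to 0.771), which is less than 1.5-fold. The gate genes had KO over WT at 1.17 (C1qa), 1.01 (C1qb) and 0.753 (C1qc) in the same cells.

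The secreted protein and the receptor for dying cells were both low in KO macrophages. Cd5l (plus strand, chr3:87357881-87371073) encodes AIM, a circulating protein that macrophages release under LXR control and that travels bound to IgM. It was at 120 CPM in KO gated macrophages (110 to 131), against 1907 CPM in labelled Het (1842 to 1973) and 2511 CPM in labelled WT (2407 to 2619). Clustered macrophages had 244, 3302 and 2761 CPM in the same order, 11.3-fold lower in KO than in labelled WT (10.2 to 12.5) and 13.5-fold lower than in labelled Het (12.3 to 14.9). The controls differed by 1.20-fold, Het over WT. Timd4 (plus strand, chr11:46810800-46844332) encodes TIM-4, a receptor for phosphatidylserine on dying cells and a mark of long-settled Kupffer cells. It was at 89.0 CPM in KO (80.1 to 98.5), 268 CPM in labelled Het (245 to 294) and 488 CPM in labelled WT gated macrophages (443 to 537). Clustered macrophages had 179, 465 and 534 CPM, 2.98-fold lower in KO than in labelled WT (2.58 to 3.45) and 2.60-fold lower than in labelled Het (2.26 to 2.998).

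The scavenger and complement receptors did not move together. Cd163, the receptor for haemoglobin bound to haptoglobin (plus strand, chr6:124304656-124330527), was at 453 CPM in KO, 186 CPM in labelled Het and 383 CPM in labelled WT gated macrophages. In the clustered macrophages it was at 945 CPM (902 to 989) in KO, 328 CPM (293 to 367) in labelled Het and 413 CPM (369 to 461) in labelled WT cells, 2.29-fold and 2.88-fold higher in KO than in labelled WT and labelled Het cells. It was the one member higher in KO against both controls there. Marco, a scavenger receptor for bacteria and particles (minus strand, chr1:120474538-120505024), was at 846, 2478 and 1784 CPM in KO, labelled Het and labelled WT gated macrophages and at 1712, 4280 and 1957 CPM in the clustered ones. There the library labelled Het stood above both others, with KO over Het at 0.400 (0.382 to 0.419) and Het over WT at 2.19 (2.06 to 2.32), while KO over WT was 0.875 (0.823 to 0.930). Vsig4, the complement receptor CRIg that captures opsonised bacteria (minus strand, chrX:96247203-96293438), likewise had its highest level in the library labelled Het. Over the whole gate it was at 121 CPM (110 to 132) in KO, 222 CPM (201 to 245) in labelled Het and 192 CPM (164 to 223) in labelled WT macrophages, so that KO was lowest. Clustered cells had 253 CPM in KO, 386 CPM in labelled Het and 207 CPM in labelled WT cells, so that KO lay between the controls there.

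Adgre1 (plus strand, chr17:57358691-57483527) was at 141, 303 and 456 CPM in KO, labelled Het and labelled WT gated macrophages, and at 292, 508 and 502 CPM in the clustered ones, 1.72-fold lower in KO than in labelled WT (1.51 to 1.96) and 1.74-fold lower than in labelled Het (1.54 to 1.97). Spic (minus strand, chr10:88674772-88685015), the transcription factor of iron-recycling macrophages that haem induces, was at 214, 290 and 444 CPM in the gated macrophages. Spic in clustered macrophages was at 447 CPM (418 to 478) in KO, 506 CPM (462 to 552) in labelled Het and 489 CPM (441 to 541) in labelled WT cells, and the KO interval overlapped both.

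**Figure D2:**
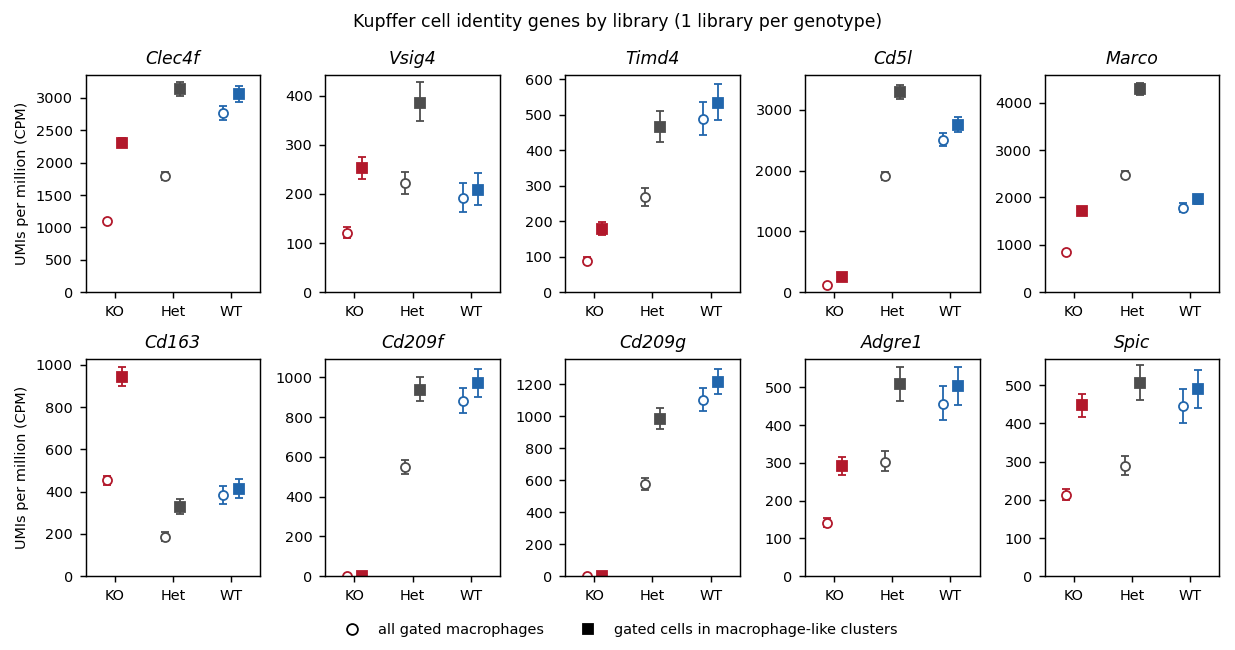
CPM of each gene in the KO, Het and WT libraries, with open circles for all gated macrophages and filled squares for the gated cells in macrophage-like clusters; bars are 95% exact Poisson intervals and cover counting error only. Cd209f, Cd209g, Cd5l and Timd4 are lowest in KO on both measures, while Cd163 is highest in KO.

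Counted by a fixed size, 8 of the 10 members (all but Cd163 and Spic) were at least 1.5-fold lower in KO than in both controls over the whole gate, beside 11.6% of 9833 genes with at least 30 UMIs, and 0 were higher, beside 6.59%. The fold rule used log2 ratios with 0.5 counts added. In the clustered macrophages 5 members passed, Timd4, Cd5l, Cd209f, Cd209g and Adgre1, beside 8.03% of 8970 genes. Cd163 passed upward there, beside 11.7% of genes. All 10 members had enough UMIs to be counted in both sets. Cd209f and Cd209g, although best read as a pair, were each counted as a member. The members' median log2 difference from labelled WT was -1.51 over the gate and -0.59 in the clustered macrophages, against -0.07 and 0.04 for all genes counted. Between the controls, 7 members were at least 1.5-fold lower in labelled Het than in labelled WT over the gate, beside 16.2% of genes, and 0 in the clustered macrophages, beside 15.6%, where Vsig4 and Marco were higher, beside 11.8%. Taking instead the gated cells in which neutrophil-lineage markers made up under 2% of UMIs, a choice made after the data were seen that uses no cluster, the same 5 members passed and Cd163 passed upward.

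**Figure D3:**
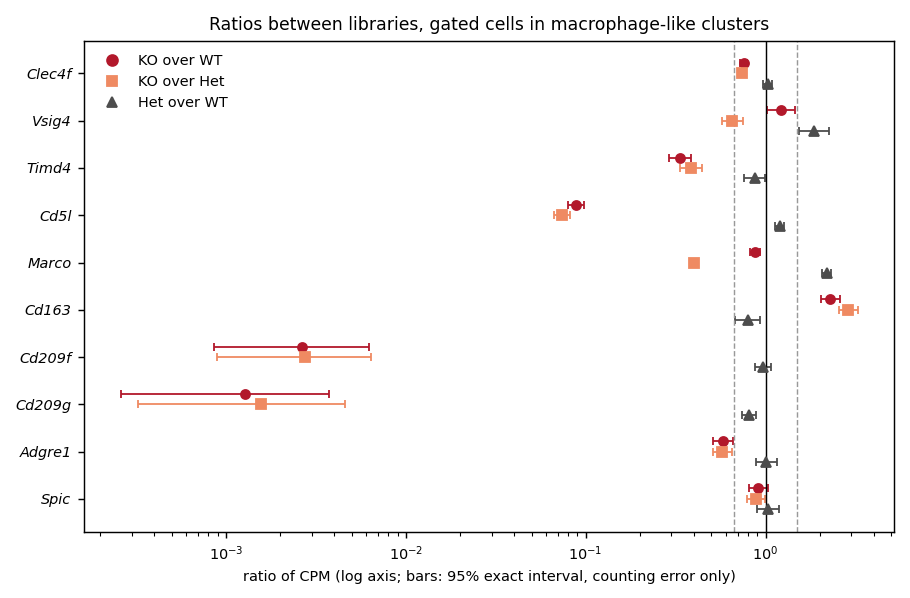
Ratio of CPM between libraries for each gene in the gated cells of macrophage-like clusters, on a log axis, with 95% exact conditional intervals; dashed lines mark 1.5-fold in either direction. Both KO ratios lie left of the dashed line for Timd4, Cd5l, Cd209f, Cd209g and Adgre1 and right of it for Cd163, while Het over WT passes the line for Vsig4 and Marco.

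The share of cells in which each gene was found was read beside its level. Thinning every cell to 3000 UMIs left 121 KO, 63 labelled Het and 72 labelled WT clustered macrophages, with 9, 15 and 14 shallower cells left out. Cd209g was found in 0 of 121 KO cells, which at this depth allows a share of cells with a UMI of up to 2.48%, against 42.9% of labelled Het (30.5 to 56.0%) and 48.6% of labelled WT cells (36.7 to 60.7%). Cd209f was found in 1 KO cell, 0.826%, against 63.5% and 61.1% of labelled Het and labelled WT cells. Cd5l was found in 28.9% of KO cells (21.05 to 37.9%), against 79.4% and 79.2% in the controls, and Timd4 in 27.3% (19.6 to 36.1%), against 63.5% and 70.8%. Without thinning, the KO shares were 47.7% for Cd5l, 39.2% for Timd4, 3.08% for Cd209f and 1.54% for Cd209g. Clec4f was in 71.1% of KO cells (62.1 to 79.0%), 74.6% of labelled Het and 80.6% of labelled WT cells, with overlapping intervals. Cd163 was in 30.6% of KO, 14.3% of labelled Het and 20.8% of labelled WT cells, and Spic in 55.4%, 46.0% and 50.0%. The KO intervals of Cd163 and Spic overlapped those of both controls. Unthinned medians were 14446, 12748 and 7635.5 UMIs in the clustered macrophages and 21338.5, 19819 and 9862 UMIs in neutrophil-lineage-like cells. The neutrophil-lineage-like cells, thinned alike, gave a UMI of any member other than Adgre1 in at most 0.378% of cells.

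**Figure D4:**
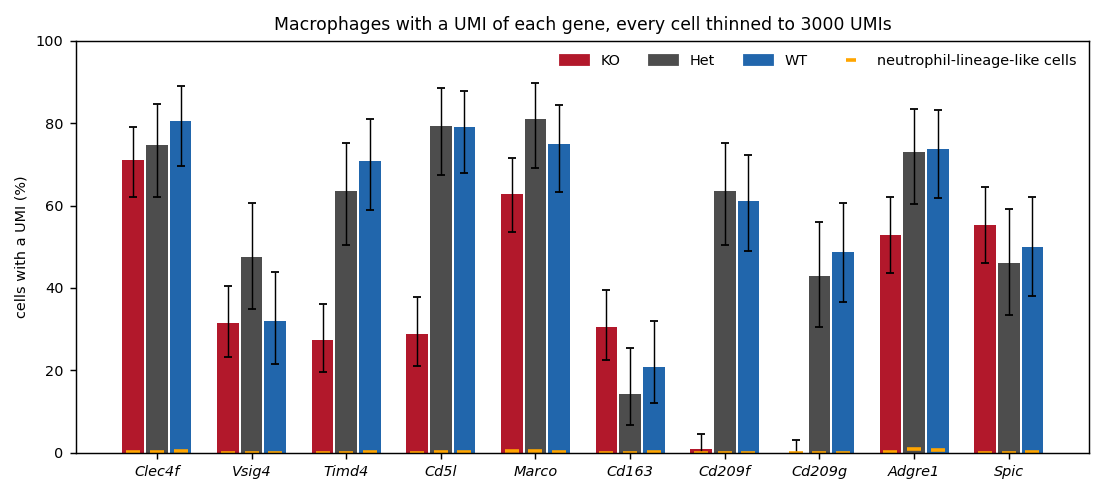
Share of clustered macrophages with a UMI of each gene after every cell was thinned to 3000 UMIs, in the KO, Het and WT libraries, with 95% Clopper-Pearson intervals; orange marks give the share in neutrophil-lineage-like cells of the same library. KO bars are far below both others for Cd209f, Cd209g, Cd5l and Timd4. For Clec4f, Vsig4, Spic, Cd163, Marco and Adgre1 the KO intervals overlap those of both others.

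Within single cells the identity genes were found together, and fewer of them at a time in KO. A thinned KO clustered macrophage held UMIs of a median of 4 of the 10 genes, with 8 as the highest number, against medians of 7 and highest numbers of 10 in both controls. Cells with 5 or more made up 33.1% of KO, 74.6% of labelled Het and 76.4% of labelled WT cells, and cells with none 11.6%, 11.1% and 6.94%. With Cd209f in 1 and Cd209g in 0 of 121 KO cells, these numbers partly restate the shares of single genes. Among Clec4f-positive cells, Cd5l was found in 36.0% of 86 KO cells, 97.9% of 47 labelled Het cells and 96.6% of 58 labelled WT cells. Timd4 was found in 37.2%, 80.9% and 86.2% of the same cells, and Cd209f in 1.16%, 78.7% and 75.9%. Low Cd5l, Timd4 and Cd209f were thus measured in KO cells that carried Clec4f.

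**Figure D5:**
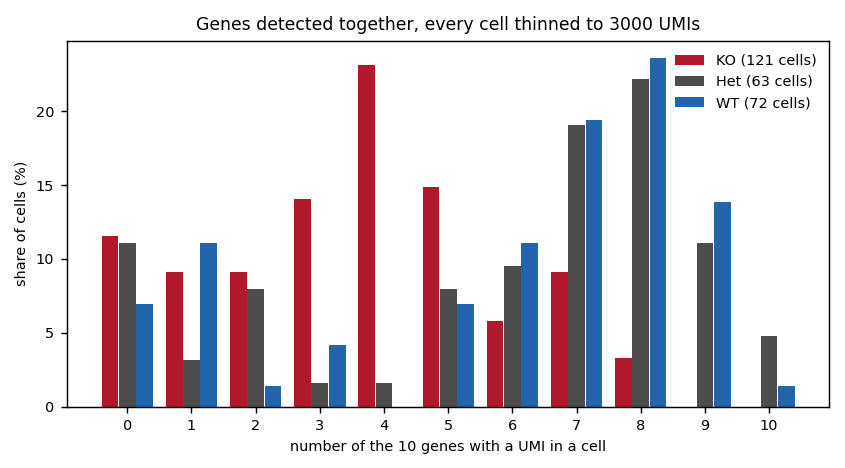
Number of the 10 genes with a UMI in each clustered macrophage, every cell thinned to 3000 UMIs, as a share of cells in the KO, Het and WT libraries. The KO distribution peaks at 4 genes and ends at 8, while those of both controls peak at 8.

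The clusters that held the macrophages differed between libraries. Of the 130 KO clustered macrophages, 89 lay in a cluster with no cell of another library and 23 in one led by C1qb, C1qa and Saa3. The latter also held 1 labelled Het and 3 labelled WT gated cells. The other 18 KO cells lay in clusters that the controls also filled. In the 89 KO cells Clec4f was at 3060 CPM, Marco at 2169 CPM, Cd163 at 1208 CPM and Spic at 622 CPM. Timd4 was at 237 CPM and Cd5l at 236 CPM in them, with 2.95 CPM of Cd209f. Every member but Cd5l was lower in the 23 KO cells than in those 89. Clec4f was at 81.7 CPM in the 23 cells, Timd4 at 3.03 CPM and Spic at 33.3 CPM. Marco was at 378 CPM, Cd163 at 176 CPM, Cd5l at 318 CPM and Adgre1 at 275 CPM in the same 23 cells. The controls filled other clusters, of which the fullest held 20 labelled Het and 40 labelled WT gated cells, with Clec4f at 5089 and 3908 CPM, Cd5l at 4644 and 2628 CPM and Cd209f at 1472 and 1035 CPM. They also had a cluster poor in these genes, with 9 labelled Het and 12 labelled WT gated cells. Clec4f was at 0 and 15.5 CPM there and Adgre1 at 67.8 and 140 CPM. A cluster filled by all libraries held 3 KO gated cells, with 19559 UMIs between them, beside 22 labelled Het and 19 labelled WT cells. Cd5l was at 1687, 7648 and 8908 CPM there in that order, and Cd209f at 0, 1588 and 2753 CPM. Timd4 was at 869 CPM in those 3 KO cells (17 UMIs), 787 CPM in labelled Het and 1074 CPM in labelled WT cells. Clec4f was at 6595, 5402 and 5060 CPM, so that in them Timd4 lay between the controls and Clec4f above both. Another cluster filled by all libraries held 15 KO, 26 labelled Het and 12 labelled WT gated cells. KO was lowest there for every member but Cd163, which was at 178, 39.0 and 326 CPM. Timd4 was at 33.9, 234 and 370 CPM in that cluster, Clec4f at 742, 1389 and 2391 CPM and the gate gene C1qa at 1273, 1790 and 3108 CPM.

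KO macrophages also carried Gpnmb, a glycoprotein of lysosome-rich, lipid-laden macrophages. It was at 665 CPM in KO, 65.9 CPM in labelled Het and 18.0 CPM in labelled WT clustered macrophages, and it was found in 45.5%, 7.94% and 4.17% of thinned cells. The 55 KO cells with Gpnmb and the 66 without had nearly the same share with Clec4f, 70.9% and 71.2%, and with Adgre1, 52.7% and 53.0%. Timd4 was found in 20.0% of KO cells with Gpnmb and 33.3% of those without, Cd5l in 21.8% and 34.8%, and Marco in 54.5% and 69.7%. Among control cells with no Gpnmb UMI at this depth, 65.5% of labelled Het and 72.5% of labelled WT cells had Timd4. Cd5l was found in 82.8% and 81.2% of them, and the KO shares were lower for both genes. Without thinning, Gpnmb was found in 58.5% of KO clustered macrophages, so cells counted as without it can carry it. Whether Gpnmb bears on the lower shares was not tested.

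Other genes of the Kupffer cell program were read in the clustered macrophages by the same 1.5-fold rule against both controls. Of 24 further signature genes, 21 had enough UMIs; 13 were lower in KO, beside 8.03% of all genes counted, and 2 were higher, beside 11.7%. The share higher was thus near that of all genes. Among the 6 with the highest levels, Fcna, a ficolin of the lectin complement pathway, was at 2439 CPM in KO, 3879 CPM in labelled Het and 4041 CPM in labelled WT cells, and Sdc3, a heparan sulphate proteoglycan, at 558, 1640 and 3000 CPM. Il18bp, which neutralises interleukin 18, was at 401, 668 and 677 CPM. Vcam1, an adhesion molecule, was at 3006, 2575 and 2090 CPM, Dmpk at 859, 820 and 1598 CPM and Cd38 at 777, 556 and 357 CPM, and these 3 did not pass. The 2 that were higher, named after their values were seen, were Slco2b1 (32.4, 13.4 and 14.2 CPM) and Fabp7 (44.8, 26.8 and 21.9 CPM).

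Most transcription factors of the program stayed within 1.5-fold of at least 1 control. Of 16, 3 were lower in KO and 1 was higher, beside 8.03% and 11.7% of all genes. Maf was at 987 CPM in KO, 1116 CPM in labelled Het and 1218 CPM in labelled WT cells, Spi1 (PU.1) at 564, 597 and 470 CPM and Zeb2 at 764, 570 and 682 CPM. Id1, a target of the BMP and TGF-beta pathways, was at 162 CPM in KO (KO over WT 0.228, interval 0.198 to 0.262), 588 CPM in labelled Het and 712 CPM in labelled WT cells. Id3 was at 325 CPM in KO, 305 CPM in labelled Het and 739 CPM in labelled WT cells, so that KO was close to labelled Het. The other 3 that passed, named after their values were seen, were Irf7 (63.8, 203 and 227 CPM), Nfe2l2 (86.4, 163 and 170 CPM) and, upward, Smad4 (152, 85.5 and 94.0 CPM).

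The list of niche signalling held 12 genes, the ligands Dll4 and Il34, which had too few UMIs, and 10 receptors, which could be counted. Of these, 1 was higher in KO, beside 11.7% of all genes, and 2 were lower, beside 8.03%. The TGF-beta receptor gene Tgfbr1 was higher in KO, at 223 CPM against 111 CPM in labelled Het and 86.3 CPM in labelled WT cells. Notch1 was lower, at 77.7, 150 and 152 CPM, as was Acvrl1, the receptor for BMP9 and BMP10, at 25.2, 79.3 and 87.6 CPM, the last named after its values were seen. Csf1r, the receptor for the macrophage growth factors CSF1 and IL-34, was at 1852, 2056 and 2337 CPM.

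In the red cell and iron list, 1 of 10 genes passed downward, beside 8.03% of all genes, which is no more than the background. That gene, Tfrc, named after its values were seen, rested on 15, 15 and 14 UMIs in KO, labelled Het and labelled WT cells (7.72, 15.4 and 18.0 CPM), and the interval of KO over Het, 0.228 to 1.10, includes 1. Hmox1, the haem oxygenase, was at 6038, 12185 and 7217 CPM and the iron exporter Slc40a1 at 2438, 2661 and 2578 CPM. Among 12 scavenger receptors and lectins outside the members, 4 were higher in KO, beside 11.7% of all genes, and 3 lower, beside 8.03%. The mannose receptor Mrc1 was at 2612 CPM in KO, 1067 CPM in labelled Het and 1047 CPM in labelled WT cells, and Mertk, a receptor for dying cells, at 608, 401 and 339 CPM. Axl, its relative, was lower in KO, at 607, 1423 and 1682 CPM, as was the lipoprotein receptor Scarb1, at 404, 687 and 698 CPM. Of 9 lipid-associated macrophage genes, Gpnmb and Apoe were higher, Apoe at 29383, 16298 and 18251 CPM, and Lpl was lower (27.8, 84.4 and 97.9 CPM, named after its values were seen), so 2 passed upward and 1 downward beside the same 11.7% and 8.03%. Of 8 monocyte genes, 2 were higher, beside 11.7% of all genes, and 2 lower, beside 8.03%, with Fn1 at 1947, 158 and 1038 CPM and Ccr2 at 48.9, 209 and 169 CPM.

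Across 30 sums (10 classes in 3 libraries), the genes whose log2(CPM + 10) followed the members' mean most closely, apart from the gate genes, were Ccl24 (Pearson's r 0.996), Il1a (0.991), C6 (0.990), Sema6d (0.989), Siglec1 (0.989), Fcna (0.989), Abcc3 (0.988) and Tmem37 (0.979). The sums share libraries and depth, and the coefficients describe presence in macrophages against other classes. Of the members themselves, Timd4 followed the mean of the other 9 most closely (0.996), and Cd209f (0.896), Cd209g (0.894) and Adgre1 (0.777) least. Ccl24, a chemokine for eosinophils, was at 61.1, 264 and 526 CPM in KO, labelled Het and labelled WT gated macrophages. Siglec1, the sialic acid receptor CD169, was at 85.6, 253 and 518 CPM in them. The clustered macrophages had Ccl24 at 128, 455 and 578 CPM and Siglec1 at 179, 443 and 573 CPM.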

How the data were processed

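Cells from 3 libraries were analysed, 1 per genotype. Per the submitters' processing notes, the deposited counts were made with Cell Ranger 7.0.0 against mm10; the sources used here give neither the probe set nor any filter. The authors deposited whole-number UMI counts per gene and barcode, not normalised. The members and gene lists were chosen with earlier results of these data known. Doublets were called with Scrublet in scanpy 1.11.5 (298 KO, 186 Het and 273 WT barcodes) and removed; with another random seed its automatic threshold did not work in the WT library. Clusters (igraph 0.11.9; 2000 variable genes less Pex2 and sex-specific ones, 40 components, 20 neighbours, Leiden resolution 1.0) were named from marker lists and used no batch correction. The gate was applied to unthinned cells. CPM are of the summed UMIs of a class; intervals are at a level of 95% and cover counting error only. The limit for a count of 0 uses 3 counts. Gated macrophages were tested against all other cells with edgeR 4.0.16 (TMM, Benjamini-Hochberg), with DESeq2 1.42.0 as an alternative, in R 4.3.3; both sums of a library come from the same animals, so the library was a block. The p-values measure the spread between 3 libraries that differ in genotype. The edgeR test and the fold rule were tested on simulated data. Other genes were named by list, at most 6 of each by CPM in gated macrophages, and by likeness to the members' mean among genes with at least 50 CPM. Of the transcription factors, 1 is not reported here. Classes needed 20 cells in each library. Ly6c2, Cx3cr1, Dnase2a, Ftl1 and Clec7a were not matched by symbol and not analysed here. The alternatives tried are given in the closing section.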

Additional observations from a re-analysis of the deposited data

How the results depend on the processing

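The count of members at least 1.5-fold lower in KO than in both controls was 8 over the gate. It was 7 under TMM scaling, median-of-ratios scaling and equal weight per cell (Vsig4 left), and 8 with a gate of 1 UMI, doublets kept or 5 counts added. It was 5 with a gate of 5 UMIs, a gate on all 3 C1q genes, cells thinned before the gate, gated cells in macrophage-like clusters, under 2% neutrophil UMIs, or UMIs set against C1q UMIs (the last 2 chosen after seeing the data), always Timd4, Cd5l, Cd209f, Cd209g and Adgre1, and in those 6 settings 1 member, Cd163, was higher, against 0 over the gate. In all cells of macrophage-like clusters, gated or not, 4 were lower (Adgre1 left) and 1 was higher. Timd4, Cd5l, Cd209f and Cd209g passed in every one of these settings. The share of genes lower in KO kept within 1.5 times of 11.6% with a minimum of 10 UMIs or TMM scaling.

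Among log2 ratios of at least 1.5-fold over the gate, those of 6 members changed sign under some setting, and the cause was not tested. In all cells of macrophage-like clusters, KO over WT was 0.12 for Clec4f, 0.80 for Vsig4, 0.30 for Marco and 0.34 for Spic, KO over Het was 0.064 for Clec4f, and Het over WT was 0.053 for Clec4f, 0.056 for Adgre1 and 0.023 for Spic. With cells thinned before the gate, KO over WT was 0.41 for Vsig4 and 0.17 for Spic, and Het over WT was 0.24 for Clec4f, 0.072 for Cd163, 0.65 for Adgre1 and 0.033 for Spic. In the gated cells of macrophage-like clusters, KO over WT was 0.28 for Vsig4, and Het over WT was 0.037 for Clec4f, 0.015 for Adgre1 and 0.047 for Spic. Per C1q UMI, KO over WT was 0.22 for Vsig4 and Het over WT 0.00071 for Adgre1. Of the smaller ratios, Cd5l Het over WT was -0.40 over the gate but 0.18 with cells thinned before the gate, 0.26 in gated cells of the clusters, 0.27 in all their cells and 0.19 per C1q UMI, and Spic KO over Het was -0.44 but 0.13 with cells thinned before the gate and 0.31 in all cells of the clusters.

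The share of macrophages in KO, Het and WT was 3.33%, 1.98% and 1.36% with a gate of 1 UMI, and 1.495%, 0.824% and 0.829% with cells thinned before the gate. In KO and Het it was 1.72% and 1.16% with a gate of 5 UMIs, 1.86% and 1.22% on all 3 C1q genes, 1.64% and 0.998% in macrophage-like clusters and 1.62% and 0.947% under 2% neutrophil UMIs. In all cells of macrophage-like clusters it was 1.86% in KO and 1.43% in WT.

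In the edgeR test of macrophages against all other cells, all 10 members stayed higher under every alternative run. Genes higher and lower numbered 1933 and 1692 with the library as a block, and 1235 and 461 with no replicate block; with a gate of 5 UMIs 2645 were lower. Leaving out 1 library at a time gave 1269 to 1890 higher and 892 to 1719 lower. No paired analysis was possible between genotypes because each has 1 library. The shares of clustered macrophages rest on 121 KO, 63 labelled Het and 72 labelled WT cells deep enough to thin.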
